A study of Mus musculus with 15 samples.

Results

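The 10 genes described here, Adipoq, Lep, Cfd, Plin1, Plin4, Cidec, Lipe, Pnpla2, Fabp4 and Pparg, are genes for which fat cells are known, and they were picked by symbol from a table of 22063 genes of mouse colon. Adipocytes store triglyceride in a lipid droplet coated by perilipins, release fatty acids from it through the lipases that Pnpla2 and Lipe encode, and secrete the hormones adiponectin and leptin and the protease adipsin. The nuclear receptor PPAR gamma, from Pparg, drives the adipocyte programme and switches on many of the others. Pparg and Pnpla2 are not restricted to fat: colon epithelium and macrophages are well known to hold PPAR gamma, and Pnpla2 acts in most tissues. Adipocytes lie mainly in the mesentery around the colon and in its submucosa.

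RNA was measured in 15 libraries of polyadenylated RNA from colon of wild-type C57BL/6 mice, 5 each from mice of the colorectal cancer model given WMW-H, from mice of the AOM/DSS model alone and from untreated controls. AOM is azoxymethane, a carcinogen, DSS is dextran sulfate sodium, which injures the colon epithelium, and WMW-H is the treatment arm of a study of the herbal formula Wumei Wan. No age, dose or time and no meaning for "-H" could be read from the labels, and nothing said that the 5 libraries of a group came from separate animals, so that p-values measure the spread between libraries only. Depth read from the steps of low values was 16210000 to 21146000 fragments per library, at which 1 fragment on a 1 kb transcript was worth 0.0473 to 0.0617 FPKM (fragments per kilobase of transcript, scaled to depth). The labels name epithelial cells as the cell type, but transcripts of smooth muscle, macrophages, endothelium and pancreas were present in all groups. No pair of libraries in a group agreed within counting noise. The median squared difference between 2 libraries, over that from counting alone, was 1.87 to 2.23 in AOM/DSS and 1.93 to 2.46 in controls. With WMW-H it was 2.02 to 3.75. These values do not tell separate animals from repeats of 1 sample. WMW-H replicate 3 stood somewhat apart from its group and is given separately where it bears on a value.

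Promoter sequences of 9 of the 10 genes were found in the RefSeq table for GRCm38.p6, each taken as the 250 bases before a start site; Fabp4 was not matched. Those of Plin1, Lep and Pparg are printed because Plin1 and Lep were among the genes with the lowest levels in WMW-H relative to controls while Pparg was higher, and because they hold the letters searched for. Both strands were searched for TTGCNNAA, a core of sites for C/EBP factors, for AGGTCA, the unit of nuclear receptor sites, for DR1, a pair of such units spaced by 1 base to which PPAR gamma and its partner RXR bind, and for TATAAA. Capitals mark the matches. In Plin1 (chr7:79732777-79733026, minus strand) TTGCNNAA began 187 and 58 bases before the start, and in Lep (chr6:29059971-29060220, plus strand) it began 55 bases before it and reads the same on both strands. Pparg has 3 starts in the table. The first (chr6:115360894-115361143, plus strand) had AGGTCA 28 bases before it, and the third (chr6:115421816-115422065, plus strand) had TTGCNNAA at 215 and, on the other strand, 16 bases before it.
Plin1: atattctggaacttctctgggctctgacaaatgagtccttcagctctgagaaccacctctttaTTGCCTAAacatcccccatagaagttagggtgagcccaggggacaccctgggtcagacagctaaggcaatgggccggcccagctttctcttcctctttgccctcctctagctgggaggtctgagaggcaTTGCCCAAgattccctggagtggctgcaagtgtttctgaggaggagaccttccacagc
Lep: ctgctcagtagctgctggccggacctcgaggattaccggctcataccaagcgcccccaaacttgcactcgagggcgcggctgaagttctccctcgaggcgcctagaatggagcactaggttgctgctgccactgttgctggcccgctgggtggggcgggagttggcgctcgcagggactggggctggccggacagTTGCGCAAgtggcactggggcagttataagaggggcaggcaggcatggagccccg
Pparg, first start: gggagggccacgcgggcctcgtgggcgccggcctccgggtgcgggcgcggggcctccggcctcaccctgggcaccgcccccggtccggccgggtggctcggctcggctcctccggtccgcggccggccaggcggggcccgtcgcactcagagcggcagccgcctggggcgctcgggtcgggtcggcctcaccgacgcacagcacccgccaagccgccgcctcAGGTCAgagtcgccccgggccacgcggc
Pparg, last start: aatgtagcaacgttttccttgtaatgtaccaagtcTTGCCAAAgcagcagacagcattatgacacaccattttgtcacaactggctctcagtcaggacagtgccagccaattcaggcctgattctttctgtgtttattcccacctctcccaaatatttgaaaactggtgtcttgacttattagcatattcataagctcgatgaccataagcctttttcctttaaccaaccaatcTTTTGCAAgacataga

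Of 32851 promoters of the same length in the table, 9.56% held TTGCNNAA, 14.02% held AGGTCA, 12.4% held TATAAA and 0.0335% held DR1. Cidec also held TTGCNNAA at 1 of its starts, and Pparg held AGGTCA and TATAAA at the second. Adipoq, Plin4, Cfd, Lipe and Pnpla2 had none of the letters searched for, and none of the 9 genes had DR1. A match describes letters in a window of 250 bases and not a bound site.

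The main result is that 8 of the 10 genes were lowest with WMW-H, intermediate in AOM/DSS and highest in controls, while Pnpla2 and Pparg kept other orders. All 10 genes reached 1 FPKM in at least 5 libraries and were tested with limma on log2(FPKM + 1) among 12917 genes, with Benjamini-Hochberg adjustment over all of them and a threshold of 0.05. Relative to controls, AOM/DSS libraries had 9 genes lower and Pnpla2 higher. Relative to AOM/DSS, WMW-H libraries had 9 genes lower and Pparg higher, and so they did relative to controls. The 3 comparisons share libraries and are not independent of each other. In bulk tissue, fewer adipocytes and less RNA per adipocyte cannot be told apart.

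Many genes of the colon changed as well, and the counts are to be read against them. Among all genes tested, 20.6% were lower and 45.5% higher in AOM/DSS relative to controls. With WMW-H, 40.9% were lower and 25.9% higher relative to AOM/DSS, and 24.1% were lower and 35.4% higher relative to controls. Groups without overlap were common too. In AOM/DSS relative to controls every library was lower for 16.0% of genes tested and higher for 36.9%. With WMW-H these shares were 32.3% and 18.8% relative to AOM/DSS, and 17.0% and 25.3% relative to controls. Of the 10 genes, 8 lay lower and 1 higher without overlap in the first comparison, and 9 and 1 in each of the others. Higher genes made up 68.9% of the calls in AOM/DSS relative to controls, against 51.4% with median-of-ratios size factors and 47.5% with quantile normalization. For WMW-H relative to AOM/DSS that share was 38.8%, against 49.6% with quantile normalization. For WMW-H relative to controls it was 59.5%, against 48.0% with quantile normalization and 49.3% with totals that leave out pancreas genes. The pattern of being lower in all 3 comparisons was shared by 303 genes, 2.35% of those tested, and 8 of the 10 adipocyte genes had it. The median log2 change of the 10 genes was -0.39, -0.51 and -0.85 in AOM/DSS versus control, WMW-H versus AOM/DSS and WMW-H versus control, beside medians of 0.12, -0.07 and 0.05 over all genes tested.

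**Figure D1:**
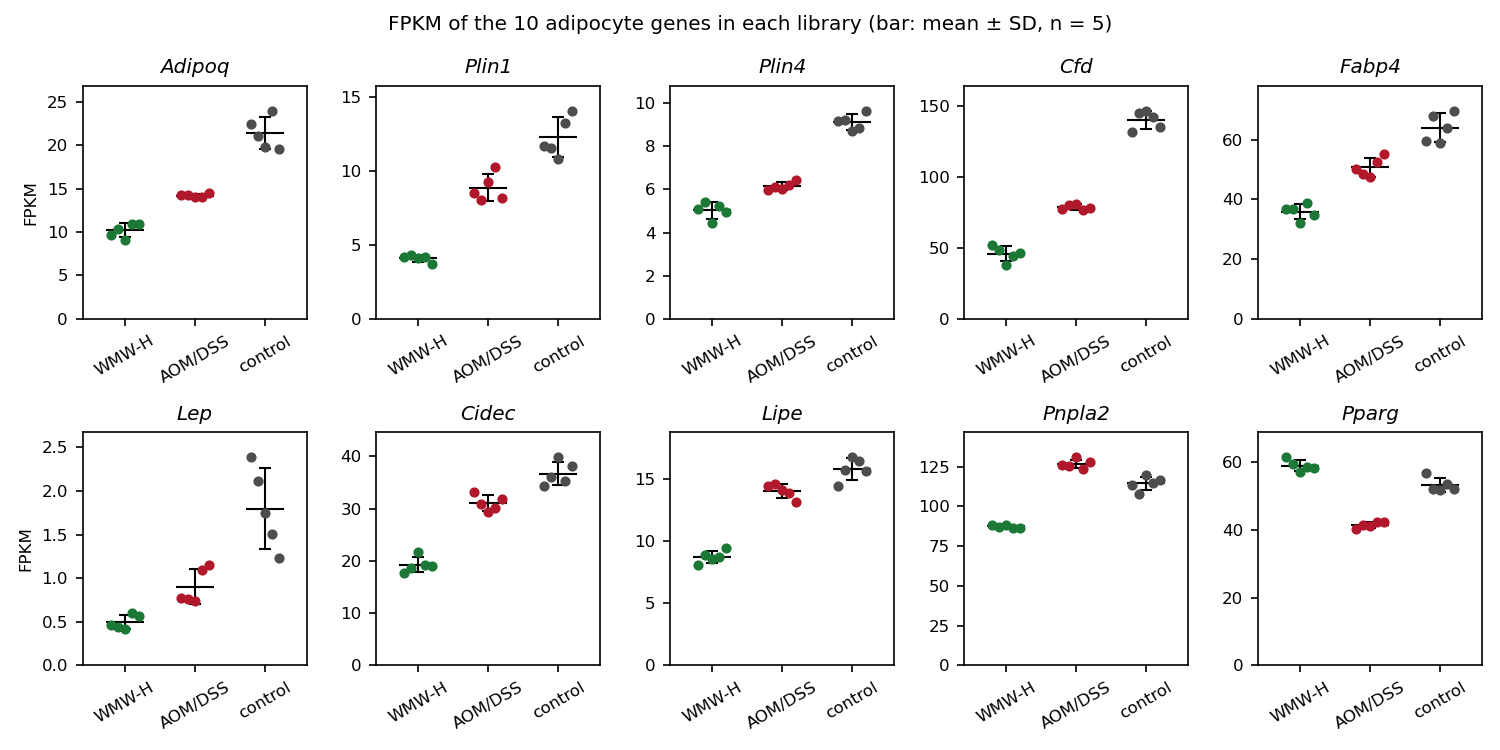
FPKM of each of the 10 genes (vertical axes, each from 0) in the 5 libraries of the WMW-H, AOM/DSS and control groups; points are libraries, the wide bar is the mean and the whiskers are 1 SD. In 8 panels WMW-H is lowest and control highest, while Pnpla2 is highest in AOM/DSS and Pparg is lowest there.

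Among the secreted products, Adipoq, which encodes adiponectin, had 9.70, 10.3, 9.13, 10.96 and 10.97 FPKM in WMW-H libraries, 14.2, 14.3, 13.99, 13.99 and 14.5 in AOM/DSS libraries, and 22.4, 21.0, 19.8, 23.9 and 19.6 in controls. No group overlapped another, and the AOM/DSS libraries were the closest together, with an SD of 0.21 FPKM (n = 5). The mean of WMW-H was 47.8% of the control mean and that of AOM/DSS was 66.5% of it. On the log2(FPKM + 1) scale Adipoq fell by 0.55 in AOM/DSS relative to controls (limma adjusted p = 1.60e-07), and by 0.44 with WMW-H relative to AOM/DSS (adjusted p = 2.66e-06).

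Cfd, which encodes adipsin, the complement factor D that fat cells release, had 52.0, 48.3, 37.7, 44.4 and 46.4 FPKM with WMW-H, 77.6, 80.6, 81.2, 76.7 and 78.4 in AOM/DSS, and 132, 145, 147, 142 and 136 in controls. Every WMW-H library was below every AOM/DSS library, and every AOM/DSS library below every control. Its steps were alike on the log2 scale, -0.82 for AOM/DSS relative to controls (limma adjusted p = 2.40e-09) and -0.78 for WMW-H relative to AOM/DSS (adjusted p = 6.46e-09). The mean of WMW-H was 32.6% of the control mean and that of AOM/DSS was 56.2% of it.

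Lep, which encodes leptin, the hormone that reports fat stores to the brain, was low throughout, at 0.460, 0.435, 0.413, 0.595 and 0.562 FPKM with WMW-H, 0.767, 0.759, 0.742, 1.09 and 1.16 in AOM/DSS and 2.39, 2.12, 1.74, 1.51 and 1.23 in controls. The groups did not overlap, but the lowest control and the highest AOM/DSS library were close. It passed the filter through the 5 controls and 2 AOM/DSS libraries, so its direction is partly set by the filter. Lep had the smallest mean of the 10 genes relative to controls, 27.4% with WMW-H, and the widest spread, with coefficients of variation of 16.4%, 22.5% and 25.8% in WMW-H, AOM/DSS and control. The added 1 in log2(FPKM + 1) shrinks the change of a gene at this level. The log2 change of WMW-H relative to controls was -0.89 with it and -1.65 with 0.1 added in its place, and limma called the gene in all 3 comparisons with either.

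Of the genes of the lipid droplet surface, Plin1 encodes perilipin 1, which guards the adipocyte droplet from lipases. It had 4.16, 4.29, 4.10, 4.21 and 3.69 FPKM with WMW-H, 8.54, 8.07, 9.28, 10.3 and 8.19 in AOM/DSS, and 11.7, 11.5, 10.8, 13.3 and 14.1 in controls. The groups did not overlap. Here the step between WMW-H and AOM/DSS was the larger on the log2 scale, -0.95 (limma adjusted p = 5.33e-09), beside -0.43 between AOM/DSS and controls (adjusted p = 6.49e-05).

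Plin4, another perilipin, had its larger step between AOM/DSS and controls. Its means were 5.03 ± 0.38 FPKM with WMW-H, 6.15 ± 0.19 in AOM/DSS and 9.12 ± 0.36 in controls (SD, n = 5 each), a log2 change of -0.50 for AOM/DSS relative to controls and of -0.25 for WMW-H relative to AOM/DSS (limma adjusted p = 9.71e-08 and 0.000264). Cidec encodes a protein that fuses droplets into large ones. It fell little in AOM/DSS, at 31.1 ± 1.49 FPKM against 36.7 ± 2.23 in controls, a log2 change of -0.23 (limma adjusted p = 0.00077). With WMW-H it was at 19.3 ± 1.47 FPKM, a log2 change of -0.66 relative to AOM/DSS (adjusted p = 6.46e-09).

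The lipases parted. Lipe, which encodes hormone-sensitive lipase, had 8.06, 8.93, 8.60, 8.70 and 9.44 FPKM with WMW-H, 14.5, 14.6, 14.1, 13.9 and 13.2 in AOM/DSS and 14.5, 15.8, 16.8, 16.5 and 15.6 in controls. WMW-H lay apart from both other groups, while AOM/DSS and controls overlapped. The AOM/DSS change relative to controls was -0.16 on the log2 scale (limma adjusted p = 0.00669, and up to 0.0447 under the alternative settings), beside -0.63 for WMW-H relative to AOM/DSS (adjusted p = 4.33e-09).

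Pnpla2, which encodes adipose triglyceride lipase, the enzyme of the step before Lipe, had 88.4, 87.1, 88.5, 86.2 and 86.6 FPKM with WMW-H, 126, 125, 131, 124 and 128 in AOM/DSS and 114, 108, 119.7, 114 and 116 in controls. The WMW-H libraries lay lowest, the controls between and the AOM/DSS libraries highest, with no overlap. The rise in AOM/DSS relative to controls was 0.15 on the log2 scale (limma adjusted p = 9.90e-05), but with median-of-ratios size factors it was 0.03 and did not pass (adjusted p = 0.419). The fall with WMW-H was 0.53 relative to AOM/DSS (adjusted p = 1.74e-11) and 0.38 relative to controls (adjusted p = 1.50e-09).

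Fabp4, which encodes the fatty acid binding protein of adipocytes and is also made by capillary endothelium and macrophages, averaged 35.9 ± 2.54 FPKM with WMW-H, 50.7 ± 3.12 in AOM/DSS and 64.0 ± 4.85 in controls (SD, n = 5 each), with no overlap. It fell by 0.33 on the log2 scale in AOM/DSS relative to controls and by 0.49 with WMW-H relative to AOM/DSS (limma adjusted p = 7.91e-05 and 9.18e-07). Macrophage and endothelial lists, whose cells also hold Fabp4, ran the other way from controls to AOM/DSS, as given below.

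Pparg was the member whose order differed most. It had 61.5, 59.6, 57.1, 58.6 and 58.4 FPKM with WMW-H, 40.3, 41.5, 41.3, 42.4 and 42.2 in AOM/DSS and 56.9, 52.1, 51.9, 53.5 and 52.1 in controls. AOM/DSS was lowest, controls lay between, and WMW-H was highest, with no overlap, although the highest control was close to the lowest WMW-H library. Pparg fell by 0.35 in AOM/DSS relative to controls (limma adjusted p = 1.47e-08), was 0.50 higher with WMW-H relative to AOM/DSS (adjusted p = 2.34e-10) and 0.14 higher relative to controls (adjusted p = 0.000468). Its order, lower, higher and higher over the 3 comparisons, was that of 473 genes, 3.66% of those tested, and the order of Pnpla2 was that of 895 genes, 6.93%.

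Whether all 10 genes moved by a common factor was asked first from the ratio of mean FPKM in 2 groups. In AOM/DSS relative to controls the factors ran from 0.503 ± 0.077 (SE) for Lep to 1.11 ± 0.022 for Pnpla2, a spread of 2.2 times. With WMW-H relative to AOM/DSS they ran from 0.460 ± 0.025 for Plin1 to 1.42 ± 0.022 for Pparg, 3.09 times, and relative to controls from 0.274 ± 0.037 for Lep to 1.11 ± 0.024 for Pparg, 4.03 times. Among the 8 genes without Pnpla2 and Pparg the spread was 1.77, 1.78 and 2.04 times. The SD of the log2 factor over the 10 genes was 0.33, 0.44 and 0.60, beside 0.88, 0.63 and 0.59 over all genes tested. The SD over all genes includes a few extreme ones. The middle 50% of the log2 factors ran from -0.58 to -0.26 over the 10 genes in AOM/DSS relative to controls, beside -0.12 to 0.36 over all genes tested. For WMW-H and controls it ran from -1.46 to -0.84, beside -0.16 to 0.29.

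**Figure D2:**
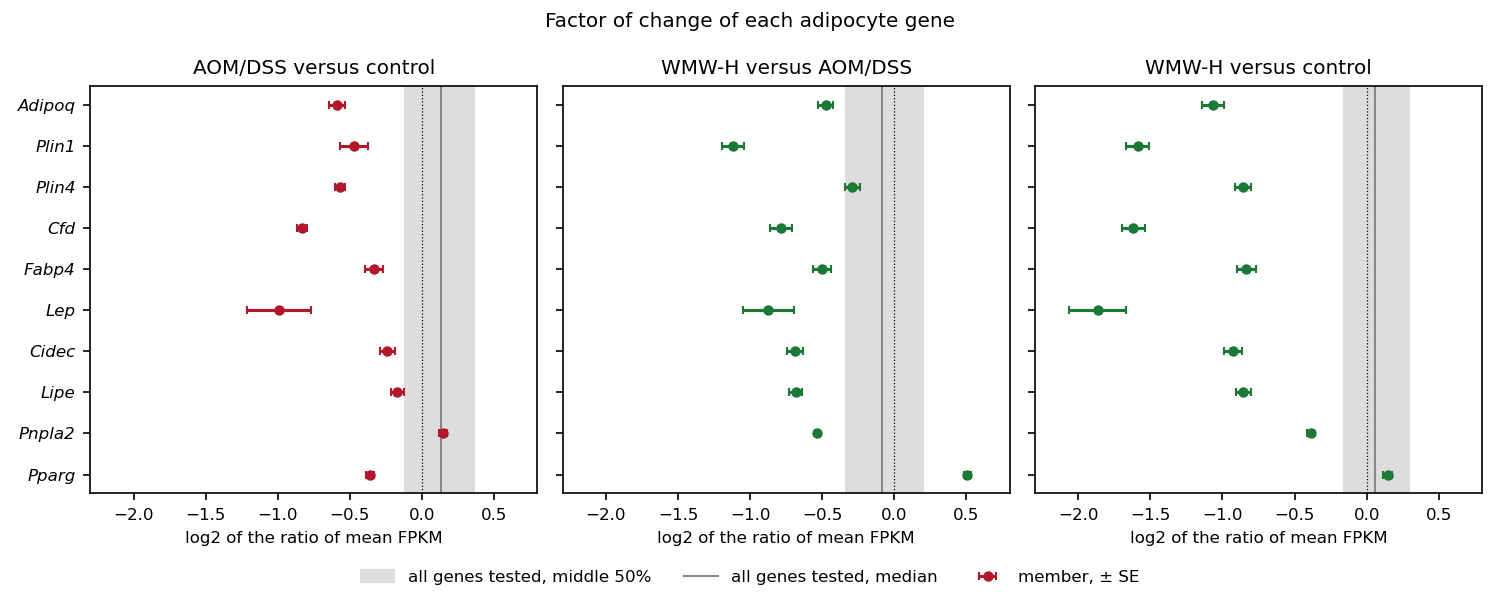
Log2 of the ratio of mean FPKM (horizontal axes) for each gene in AOM/DSS versus control, WMW-H versus AOM/DSS and WMW-H versus control; points are the ratios, whiskers 1 SE from the libraries, the grey band the middle 50% of all genes tested and the grey line their median. In AOM/DSS versus control Lep lies lowest at -0.99 and Pnpla2 alone lies above 0, while Pparg alone lies above 0 in the panels of WMW-H.

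A common factor would leave the ratio of 2 genes within a library the same in all groups, whatever the scaling of the library. The log2 ratio of each of the other 9 genes to Adipoq was compared between groups by exact permutation tests of 5 against 5 libraries, two-sided, for which 0.00794 is the smallest p, with adjustment over the 27 tests. The 9 ratios share the Adipoq value. Of the 27, 15 passed, 5 in each comparison. With Plin1 as the denominator, 2 passed in AOM/DSS versus control, 8 in WMW-H versus AOM/DSS and 7 in WMW-H versus control.

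Relative to controls, AOM/DSS libraries kept Plin4 and Adipoq together, with a log2 ratio that differed by 0.02 ± 0.07 (SE, exact permutation adjusted p = 0.77), and Plin1 differed by 0.12 ± 0.11 (adjusted p = 0.326). Cfd fell further than Adipoq, by 0.25. Cidec, Lipe, Pparg and Pnpla2 fell less or rose, with ratios higher by 0.35, 0.41, 0.23 and 0.73. Each of those 5 had an exact permutation adjusted p of 0.0153, but the call of Cfd missed the threshold when AOM/DSS replicate 1, 2, 4 or 5 was left out (adjusted p 0.0536 to 0.0571), with differences of -0.25 to -0.24 that were close to the one with all libraries. Lep at -0.40 ± 0.21 and Fabp4 at 0.25 ± 0.09 did not pass (adjusted p = 0.136 and 0.0504), and Fabp4 passed without control replicate 5 (0.0153).

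With WMW-H relative to AOM/DSS, Plin1 lost more than Adipoq, and its ratio was lower by 0.64 ± 0.10 (exact permutation adjusted p = 0.0153). In WMW-H libraries there were 0.336 to 0.449 FPKM of Plin1 per FPKM of Adipoq, against 0.565 to 0.737 in AOM/DSS libraries. Ratios of Cfd and Lipe were lower by 0.31 and 0.21, and those of Plin4 and Pparg were higher by 0.19 and 0.99 (adjusted p = 0.0286 for Lipe and 0.0153 for the others). Fabp4 differed by -0.02 ± 0.05 and Pnpla2 by -0.06 ± 0.06 and did not pass (adjusted p = 0.668 and 0.386). Cidec at -0.21 and Lep at -0.38 missed the threshold (0.0643 and 0.0504). Cidec passed without WMW-H replicate 3, at -0.29 (0.0153), and Lep passed without AOM/DSS replicate 1, 2 or 3 (0.0402 to 0.0429).

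With WMW-H relative to controls, ratios to Adipoq were lower for Plin1 by 0.52, Cfd by 0.56 and Lep by 0.78, and higher for Pnpla2 by 0.68 and Pparg by 1.21 (exact permutation adjusted p = 0.0153 for each). Plin4, Fabp4, Lipe and Cidec had ratios higher by 0.20, 0.23, 0.21 and 0.14 that did not pass (adjusted p = 0.0564, 0.0816, 0.0564 and 0.357). Plin4 and Fabp4 passed without WMW-H replicate 5 or control replicate 5, with adjusted p from 0.0252 to 0.0476, and Lipe passed without control replicate 3 (0.0268).

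**Figure D3:**
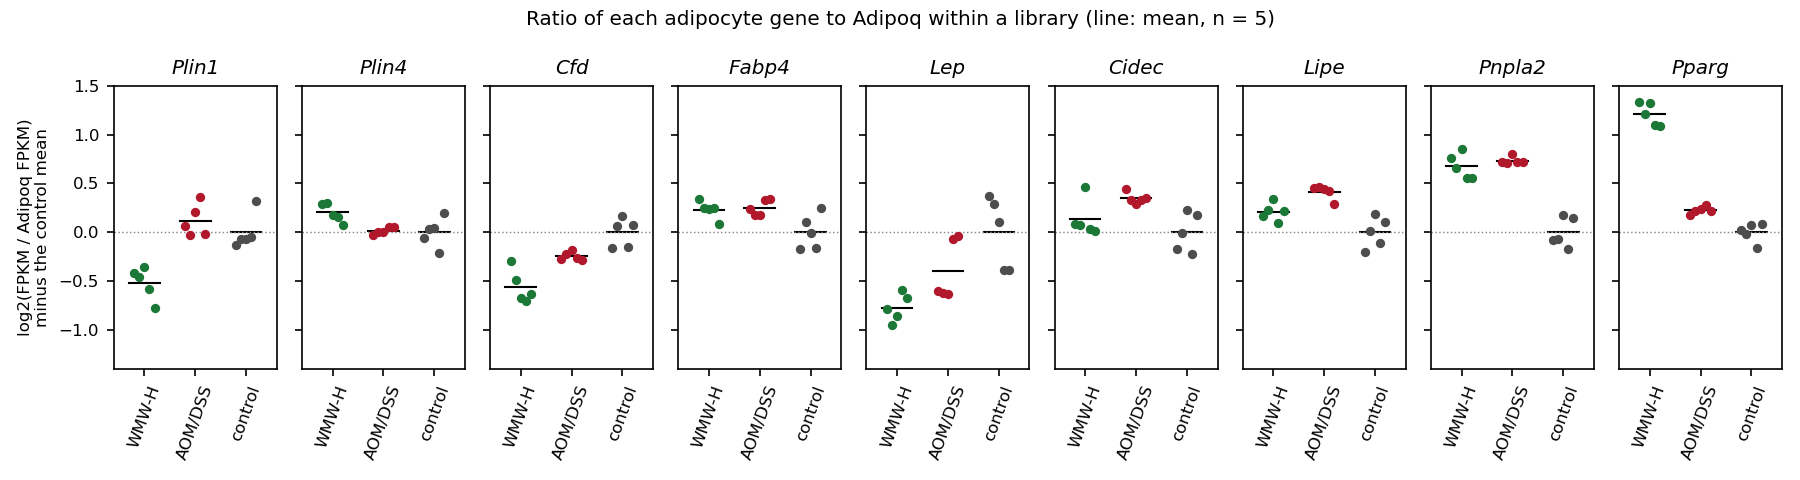
Log2 of the FPKM of each gene over that of Adipoq in the same library, minus the control mean (vertical axis, shared by all panels), in the WMW-H, AOM/DSS and control groups; points are libraries and lines are means. A common factor would place all points of a panel near 0: Plin4 stays near it in AOM/DSS, while Pparg with WMW-H lies 1.21 above the controls and Plin1 with WMW-H lies 0.52 below them.

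Taking each of the 45 pairs of the 10 genes in turn, a step added after the values had been seen, 91 of 135 ratio comparisons passed the exact permutation test after adjustment over the 135. In 14 pairs the ratio differed in all 3 comparisons. In 5 pairs it differed in none: Cidec with Lipe, Fabp4 with Lipe, Fabp4 with Cidec, Cfd with Lep, and Plin1 with Lep. The closest pair was Cidec and Lipe, whose log2 ratio differed by at most 0.07 between any groups. For Plin1 and Lep the largest difference was 0.51, so the absence of a call there goes with the spread of Lep. A ratio that did not pass is not shown to be equal.

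Single libraries also varied. WMW-H replicate 3 was the lowest of its group for Adipoq, Plin4, Cfd, Fabp4, Lep and Pparg and the highest for Cidec and Pnpla2. Of the 8 genes without Pnpla2 and Pparg, 6 were below the group mean there, by a median of 10.4% over the 8, whereas Cidec was 12.5% above it. Without that library, 9 genes were lower and 1 was higher in each comparison, as with it. In controls, replicate 5 was the lowest for Adipoq and Lep and the highest for Plin1, Plin4 and Fabp4.

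Genes that resemble Adipoq over the 15 libraries were mostly not genes of fat. The 10 with the highest Pearson r on log2(FPKM + 1) were Fcgbp, Entrep1, Cnnm4, Qsox1, Atp5b, Tmem97, Iglv2, Cyp2s1, Pim3 and Gstm2, with r from 0.975 to 0.982. Fcgbp, which encodes a mucus protein of goblet cells, was at 508 ± 21.5 FPKM with WMW-H, 672 ± 6.25 in AOM/DSS and 941 ± 10.8 in controls. Of the members, Cfd came 12th with r = 0.974, Plin4 30th with 0.966, Fabp4 81st with 0.942, Lep 122nd with 0.93 and Plin1 137th with 0.924. Lipe and Cidec followed at 0.895 and 0.888, Pnpla2 at 0.624 and Pparg at -0.20. These r describe 15 libraries in 3 groups and share the group means, so any gene with the order of the groups has a high value.

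Other genes of the lipid droplet and of lipolysis did not follow Plin1 and Plin4 in AOM/DSS relative to controls. With WMW-H relative to AOM/DSS those that were called fell, as Plin1 and Plin4 did. Of 9 tested out of 12 listed, 5 rose and 0 fell in AOM/DSS relative to controls, where 45.5% of all genes rose and 20.6% fell. With WMW-H 0 rose and 6 fell relative to AOM/DSS, where 40.9% of all genes fell, and 4 rose and 3 fell relative to controls. Pnpla3 is in these counts, at means of 0.605, 1.82 and 1.07 FPKM in WMW-H, AOM/DSS and control. It was below 1 FPKM in every WMW-H library and above it in every AOM/DSS library, so its directions are partly set by the filter. The counts are otherwise of the whole list. The median log2 change of the 9 was 0.13, -0.39 and 0.05 in these comparisons, beside 0.12, -0.07 and 0.05 over all genes tested. Plin2 encodes the perilipin that most cell types other than adipocytes use. It was at 53.4 ± 3.19 FPKM with WMW-H, 79.5 ± 2.18 in AOM/DSS and 40.5 ± 1.73 in controls, a log2 change of 0.96 in AOM/DSS relative to controls and -0.57 with WMW-H relative to AOM/DSS (limma adjusted p = 7.79e-13 and 1.50e-09). Plin3, also widely used, rose by 0.57 in AOM/DSS relative to controls and fell by 0.41 with WMW-H relative to AOM/DSS (limma adjusted p = 9.06e-08 and 4.58e-06). Bscl2, which encodes seipin, a protein of droplet formation, was lower with WMW-H, at 35.7 ± 1.48 FPKM against 47.1 ± 0.66 in AOM/DSS and 48.2 ± 2.52 in controls.

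**Figure D4:**
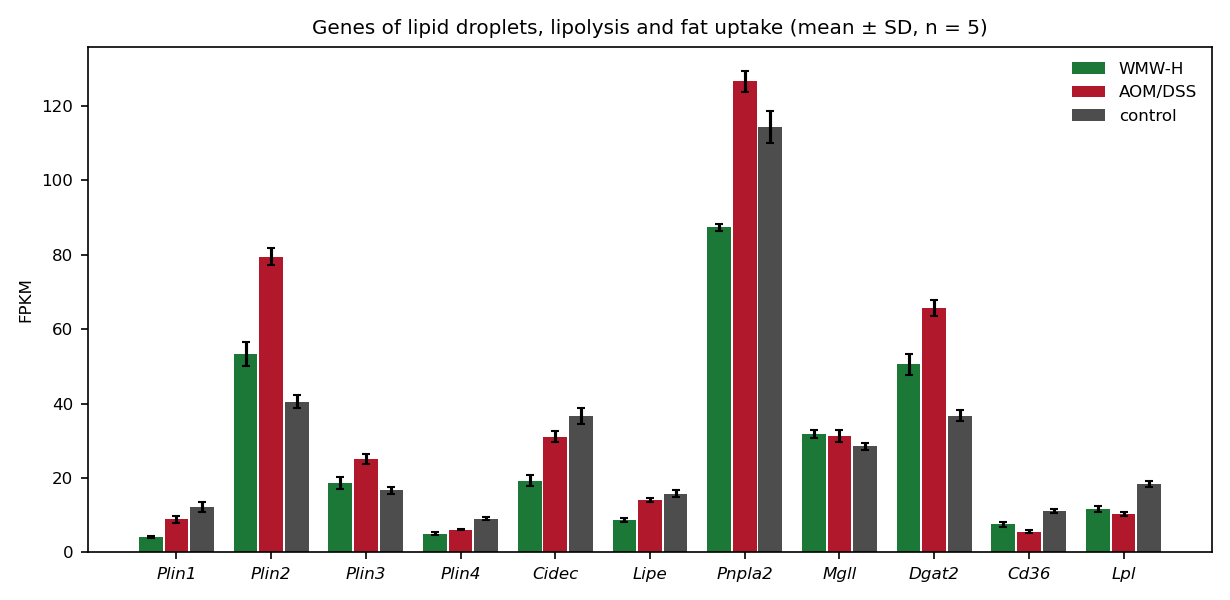
Mean FPKM (vertical axis, from 0) of 11 genes of lipid droplets, lipolysis and fat uptake in the WMW-H, AOM/DSS and control groups; bars are means and whiskers 1 SD of 5 libraries. Plin1 and Plin4 are highest in controls, while Plin2, Plin3 and Dgat2 are highest in AOM/DSS and Cd36 and Lpl are lowest there.

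Of 8 genes of triglyceride synthesis tested, 4 rose and 1 fell in AOM/DSS relative to controls, a share near the 45.5% of all genes that rose, and their median log2 change was 0.03, beside 0.12 over all genes tested. Dgat2, which catalyses the last step, was at 50.6 ± 2.83 FPKM with WMW-H, 65.7 ± 2.19 in AOM/DSS and 36.7 ± 1.49 in controls, and Mogat2, of the monoacylglycerol route that the gut uses, rose by 0.98 on the log2 scale in AOM/DSS relative to controls (limma adjusted p = 6.26e-09). With WMW-H relative to AOM/DSS 5 fell and 1 rose. In fatty acid uptake, 3 of 7 tested fell and 2 rose in AOM/DSS relative to controls. Cd36, a fatty acid transporter, was at 7.54 ± 0.72 FPKM with WMW-H, 5.50 ± 0.41 in AOM/DSS and 11.2 ± 0.47 in controls. Lpl, which encodes lipoprotein lipase, was at 11.6 ± 0.87, 10.4 ± 0.56 and 18.4 ± 0.86 FPKM in the same groups, so that both genes were lower in both model groups relative to controls, as 8 of the 10 members were, but were higher with WMW-H than in AOM/DSS (limma adjusted p = 2.19e-05 for Cd36 and 0.0189 for Lpl).

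Transcription factors of adipogenesis other than Pparg did not all share an order. Those that rose in AOM/DSS relative to controls, Cebpb, Cebpd, Srebf1 and Nr1h3, fell with WMW-H relative to AOM/DSS. Of 8 tested, 4 rose and 2 fell in AOM/DSS relative to controls. With WMW-H 2 rose and 6 fell relative to AOM/DSS, and 2 rose and 3 fell relative to controls. Their median log2 change was 0.19, -0.31 and -0.08 in these comparisons, beside 0.12, -0.07 and 0.05 over all genes tested. Of all genes, 45.5% rose in the first comparison and 40.9% fell in the second. Ebf1, counted among those that rose with WMW-H, had means of 0.804 FPKM in AOM/DSS and 0.976 in controls. It passed the filter largely through WMW-H, so its rise is partly set by the filter. Cebpa, the partner of Pparg in the adipocyte programme, was at 19.4 ± 1.16 FPKM with WMW-H, 23.96 ± 0.74 in AOM/DSS and 23.4 ± 1.07 in controls. It fell by 0.29 with WMW-H relative to AOM/DSS (limma adjusted p = 1.15e-05), the comparison in which Pparg rose by 0.50. Srebf1, which encodes the factor that drives fatty acid synthesis, fell by 0.65 and Cebpd, an early factor, by 0.61 in that comparison (limma adjusted p = 6.23e-10 and 4.88e-08).

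Other genes enriched in adipocytes, 14 tested of 16 listed, were lower more often than higher. In AOM/DSS relative to controls 5 fell and 3 rose, with WMW-H relative to AOM/DSS 9 fell and 3 rose, and with WMW-H relative to controls 10 fell and 2 rose. Their median log2 change was -0.09, -0.24 and -0.39 in these comparisons, beside 0.12, -0.07 and 0.05 over all genes tested. Car3, which encodes an abundant carbonic anhydrase of adipocytes, was at 36.5 ± 3.09 FPKM with WMW-H, 42.0 ± 0.77 in AOM/DSS and 73.6 ± 1.07 in controls, the order of the 8 members. Thrsp, a gene of fatty acid synthesis, was at 6.34 ± 0.93, 19.9 ± 1.85 and 13.3 ± 0.85 FPKM in the same groups. Adrb3, which encodes the adrenergic receptor that starts lipolysis in adipocytes, was at 0.571 ± 0.16 FPKM with WMW-H, 1.31 ± 0.21 in AOM/DSS and 1.26 ± 0.35 in controls, and fell by 0.56 on the log2 scale relative to AOM/DSS (limma adjusted p = 0.000225). It was below 1 FPKM in every WMW-H library and passed the filter only through the other groups, so this direction is partly set by the filter. Adig has the same limit, at 0.394 ± 0.17 FPKM with WMW-H, 1.34 ± 0.14 in AOM/DSS and 1.34 ± 0.62 in controls. The counts of 9 and 10 genes that fell with WMW-H include Adrb3, Adig and Trarg1, whose mean with WMW-H was 0.967 FPKM. The 3 that rose with WMW-H relative to AOM/DSS were Cav1, the caveolin gene that endothelium also uses, Lgals12 and Sncg. They rose by 0.52, 0.38 and 0.21 on the log2 scale (limma adjusted p = 7.65e-07, 0.000212 and 0.0344). Relative to controls, Lgals12 and Sncg were lower with WMW-H (limma adjusted p = 0.023 and 0.000124), while Cav1 was higher (limma adjusted p = 2.47e-05).

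Of 11 secreted products of fat other than the 3 members, 5 rose and 4 fell in AOM/DSS relative to controls. With WMW-H 1 rose and 5 fell relative to AOM/DSS, and 4 rose and 5 fell relative to controls. Among all genes tested, 45.5%, 25.9% and 35.4% rose and 20.6%, 40.9% and 24.1% fell in these comparisons. Apln, counted among those that rose relative to controls, had a mean of 0.501 FPKM in controls, so its rises are partly set by the filter. Lcn2, a lipocalin that inflamed epithelium and neutrophils also make, was at 26.1 ± 3.07 FPKM with WMW-H, 79.1 ± 3.26 in AOM/DSS and 4.88 ± 0.73 in controls. Retn, which encodes resistin, the hormone of mouse adipocytes, was at 3.64 ± 0.94 FPKM with WMW-H, 6.19 ± 0.75 in AOM/DSS and 7.66 ± 1.15 in controls, and the difference between AOM/DSS and controls did not pass (limma adjusted p = 0.0806). Of 9 markers of brown or beige adipocytes, 3 were tested, and the levels were uneven. Zic1 was listed at 0 in all 15 libraries, and Ucp1, which encodes the heat-producing uncoupler, in all 5 of WMW-H, 4 of 5 of AOM/DSS and 4 of 5 controls. Cox7a1, a mitochondrial gene that muscle also uses, was at 16.1 ± 1.69 FPKM with WMW-H, 14.8 ± 2.92 in AOM/DSS and 18.2 ± 0.85 in controls. Ppargc1a, a coactivator used in many tissues, was at 4.71 ± 0.75, 3.94 ± 0.73 and 5.20 ± 0.58 FPKM and Prdm16, a regulator of brown fat, at 1.26 ± 0.22, 1.37 ± 0.10 and 0.988 ± 0.10 FPKM in the same groups. Cidea, Cox8b and Dio2 were above 0 in all libraries with means under 1 FPKM, and Elovl3 was at or near 0.

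Markers of other tissues moved with the groups too. Genes of the pancreas, 27 found of 28 listed, made up 2.50% ± 0.045 of the FPKM total with WMW-H, 1.47% ± 0.014 in AOM/DSS and 6.26% ± 0.046 in controls (SD, n = 5 each). Relative to controls, 27 of 27 fell in AOM/DSS and 26 of 27 with WMW-H, while relative to AOM/DSS 24 rose and 1 fell with WMW-H. Ins1, Ins2 and Iapp, counted among those that fell, had means below 1 FPKM in both model groups. They passed the filter largely through controls, so their falls are partly set by the filter. The 8 adipocyte genes without Pnpla2 and Pparg made up 0.0244% ± 0.0013 with WMW-H, 0.0401% ± 0.00049 in AOM/DSS and 0.0569% ± 0.0015 in controls. The 16 other adipocyte-enriched genes had the same order, at 0.0290%, 0.0331% and 0.0377% in WMW-H, AOM/DSS and control. Their sums were 154, 169 and 200 FPKM, of which Car3 alone held 36.5, 42.0 and 73.6. The step of this sum between AOM/DSS and controls was thus set mostly by Car3. The pancreas and adipocyte sets were highest in controls, but WMW-H was above AOM/DSS for the pancreas and below it for the adipocyte genes. With totals that leave out the pancreas genes, 9 members were lower and 1 was higher in each comparison, as before. The part of the pancreas transcripts in these results was not tested beyond that.

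Macrophage markers, 9 of 9 found, summed to 572 to 606 FPKM with WMW-H, 704 to 720.2 in AOM/DSS and 328 to 353 in controls. Endothelial markers, 9 of 9 found, summed to 80.9 to 82.9 with WMW-H, 87.1 to 89.7 in AOM/DSS and 60.3 to 65.3 in controls. Relative to controls 8 of 9 genes of each list rose in AOM/DSS and 8 of 9 with WMW-H, the opposite direction to Fabp4. Among all genes tested 45.5% and 35.4% rose in these comparisons. The median log2 change was 0.73 and 0.51 for the macrophage list and 0.34 and 0.31 for the endothelial list. Over all genes tested it was 0.12 and 0.05. The endothelial 8 were not the same genes, as Emcn did not pass in AOM/DSS and Tie1 did not with WMW-H (limma adjusted p = 0.827 and 0.237). No marker of either list was at 0. Where Fabp4 also fell, with WMW-H relative to AOM/DSS, 5 macrophage genes fell and 2 rose, and 4 endothelial genes fell and 3 rose. Of all genes tested, 40.9% fell and 25.9% rose there. Smooth muscle markers summed to means of 2063, 2080 and 2053 FPKM in WMW-H, AOM/DSS and control. Absorptive colonocyte markers, of an epithelium that holds PPAR gamma, summed to 6255 to 6374 FPKM with WMW-H, 5321 to 5371 in AOM/DSS and 7335 to 7502 in controls, a sum set mostly by Car1 and Guca2a. Of those 10 markers, 4 rose and 5 fell with WMW-H relative to AOM/DSS, and 1 rose and 9 fell relative to controls. In AOM/DSS relative to controls 1 rose and 8 fell. Among all genes tested, the shares that rose and fell were 25.9% and 40.9%, 35.4% and 24.1%, and 45.5% and 20.6% in the same order. Mesothelial markers, of the lining outside the colon, summed to 3.60 to 5.71 FPKM with WMW-H, 3.09 to 4.68 in AOM/DSS and 2.29 to 3.71 in controls, and genes of skeletal muscle, a tissue that also holds Plin4 and Lipe, to 15.2 to 23.9, 14.1 to 16.6 and 18.1 to 21.6. The part of these cell types in the results was not tested.

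**Figure D5:**
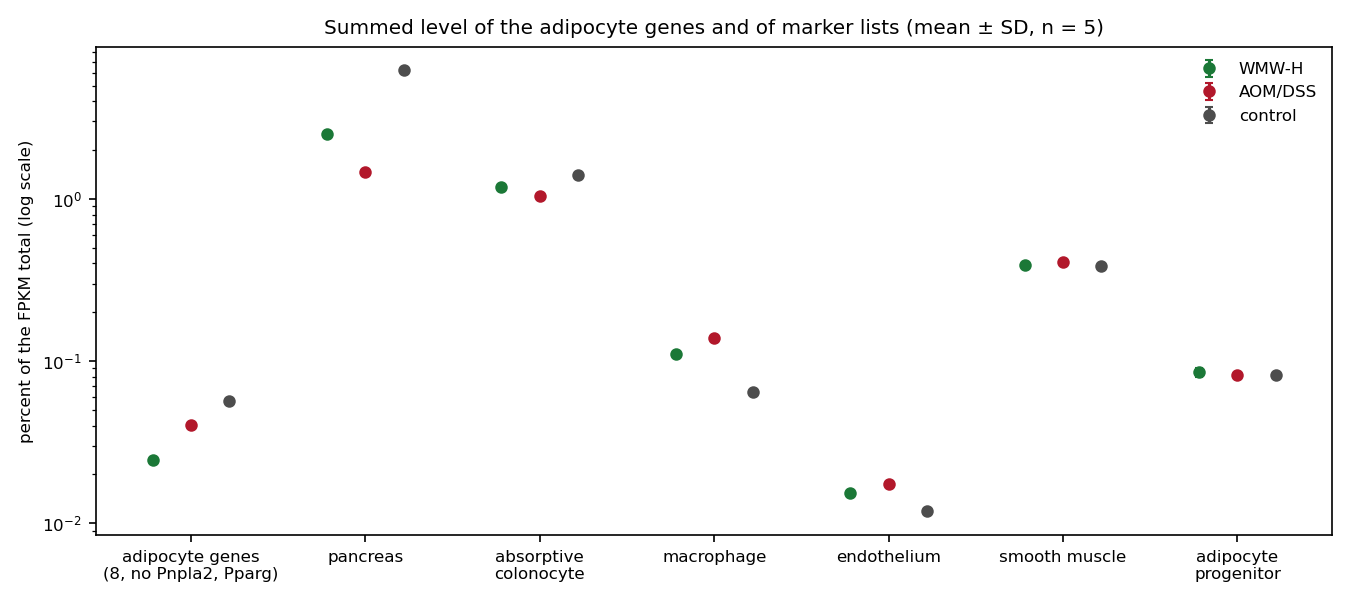
Summed FPKM of the 8 adipocyte genes without Pnpla2 and Pparg and of 6 marker lists, as a percent of the library's FPKM total (vertical axis, log scale), in the WMW-H, AOM/DSS and control groups; points are means of 5 libraries and the SD is mostly smaller than the point. The adipocyte genes are at 0.0244% with WMW-H, 0.0401% in AOM/DSS and 0.0569% in controls. The pancreas and colonocyte lists are lowest in AOM/DSS and the macrophage and endothelial lists highest there.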

How the data were processed

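The authors deposited 1 table of FPKM values for 15 libraries, with an Ensembl identifier and symbol per gene. Per the submitters' processing notes, RSEM, HISAT2, Bowtie2 2.2.8, fastp 0.18.0 and StringTie 1.3.1 took part, with no order given. The genome build was not given in the sources used here. Library totals ran from 507895 to 535410 FPKM. The filter kept genes that reached 1 FPKM in 5 or more libraries. Group means of log2(FPKM + 1) were fitted in R 4.3.3 by limma 3.58.1, with 15 libraries in 1 model, a trended prior and two-sided tests. The added 1 understates the change of low genes. The step was tested on simulated data. Depth was read from low FPKM values that fell on whole fragments within 0.1. Factors are ratios of mean FPKM with SE from the libraries. Ratios within a library were compared by exact permutation. Alternatives were another pseudocount, no filter, other scalings, a replicate block and each library left out. The members and gene lists were chosen with earlier results of these data known. From each further list the text names some of the called genes with the smallest p, and some that went against the rest. Figures used matplotlib 3.10.9 in Python 3.11.15.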

Additional observations from a re-analysis of the deposited data

How the results depend on the processing

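Over 24 alternative settings, 719 of 720 log2 changes of the 10 genes kept their direction and their side of the threshold. The exception was Pnpla2 in AOM/DSS versus control with median-of-ratios size factors (0.03, limma adjusted p = 0.419), which left 0 members higher there. With quantile normalization 4167 genes were lower and 3765 higher in AOM/DSS versus control, where 2658 and 5881 were called on FPKM as deposited. With Plin1 in place of Adipoq as the common denominator, 2 ratios differed in AOM/DSS versus control, 8 in WMW-H versus AOM/DSS and 7 in WMW-H versus control, where 5 differed in each with Adipoq. With 1 library left out at a time, 9 members were lower and 1 higher in each comparison, and 4 to 6, 5 to 6 and 5 to 7 ratios differed. Of 420 factors recomputed, 12 moved by more than the spread between libraries, 8 of them with size factors and the other 4, for Pnpla2 or Pparg, with TPM or with totals that leave out pancreas genes, an alternative for factors chosen after seeing the data. Replicate numbers did not pair the libraries: the correlation of same-numbered libraries' deviations ran from -0.05 to 0.03 over 15 pairs. A fit with the replicate number as a block (replicate block) called 9 members lower and 1 higher in each comparison and changed no member's call. Lep, below 1 FPKM in all WMW-H libraries, is the member whose size depends most on the pseudocount.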

Other observations

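Of the 4 receptor genes of adiponectin and leptin, 3 rose and 1 fell in AOM/DSS relative to controls, 1 rose and 2 fell with WMW-H relative to AOM/DSS, and 2 rose and 2 fell with WMW-H relative to controls. Cdh13, which encodes T-cadherin, a binding partner of adiponectin, was at 6.91 ± 0.49 FPKM with WMW-H, 14.7 ± 0.41 in AOM/DSS and 3.45 ± 0.48 in controls, a log2 change of 1.82 in AOM/DSS relative to controls, where Adipoq fell by 0.55 (limma adjusted p = 1.51e-13 and 1.60e-07). Cdh13 fell by 0.99 with WMW-H relative to AOM/DSS (limma adjusted p = 1.05e-09), and Adipoq fell too. Adipor1, a signalling receptor of adiponectin, rose by 0.40 in AOM/DSS and by 0.33 with WMW-H relative to controls (limma adjusted p = 8.19e-09 and 1.58e-07). Adipor2, the related receptor, was at 57.5 ± 1.34 FPKM with WMW-H, 68.6 ± 1.48 in AOM/DSS and 62.3 ± 1.62 in controls. Lepr, the leptin receptor gene, was at 2.30 ± 0.18 FPKM with WMW-H, 1.65 ± 0.24 in AOM/DSS and 3.43 ± 0.20 in controls, and Lep was 0.493 ± 0.081, 0.903 ± 0.20 and 1.80 ± 0.46 FPKM in those groups (SD, n = 5 each). Lepr and Lep were both lower in both model groups relative to controls.

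Of 8 markers of adipocyte progenitors tested, 6 rose and 2 fell in AOM/DSS relative to controls. With WMW-H 5 rose and 2 fell relative to AOM/DSS, and 4 rose and 1 fell relative to controls. Among all genes tested, 45.5%, 25.9% and 35.4% rose in these comparisons. The median log2 change of the 8 was 0.54, 0.14 and 0.39, beside 0.12, -0.07 and 0.05 over all genes. Their sum, set mostly by Ly6a, was 0.0850%, 0.0825% and 0.0816% of the FPKM total in WMW-H, AOM/DSS and control. The 4 that rose with WMW-H relative to controls were F3, Cd34, Pdgfra and Pi16, by 0.82, 0.66, 0.71 and 1.20 on the log2 scale (limma adjusted p at most 5.78e-08), and they rose in AOM/DSS as well. Pdgfra, which encodes a growth factor receptor of stromal cells, was at 13.8 ± 0.29 FPKM with WMW-H, 12.3 ± 1.25 in AOM/DSS and 8.09 ± 0.56 in controls. Dlk1, which marks cells before they become adipocytes, was at 0.741 ± 0.22 FPKM with WMW-H, 4.09 ± 0.42 in AOM/DSS and 0.924 ± 0.23 in controls. It did not pass between WMW-H and controls (limma adjusted p = 0.204). Its means were below 1 FPKM outside AOM/DSS, so it passed the filter largely through that group and its directions are partly set by the filter. Pi16 had a mean of 0.965 FPKM in controls, so its rises have a like limit. Dpp4, a marker of early progenitors that epithelium also makes, was the 1 gene lower with WMW-H relative to controls. It was at 4.26 ± 0.23, 2.40 ± 0.08 and 5.47 ± 0.42 FPKM in WMW-H, AOM/DSS and control.

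Gut genes known as targets of PPAR receptors did not share the order of Pparg. Of 9 tested, 5 rose and 4 fell in AOM/DSS relative to controls, 3 rose and 4 fell with WMW-H relative to AOM/DSS, and 5 rose and 4 fell with WMW-H relative to controls. Fabp2, the intestinal fatty acid binding protein gene, was at 133 ± 2.6 FPKM with WMW-H, 84.1 ± 3.97 in AOM/DSS and 156 ± 6.19 in controls. It was lowest in AOM/DSS, as Pparg was, while Plin2, on the same list, was highest there.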
